A study of Mus musculus with 8 samples.

Results

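The MYC, MAX and MXD network is the set of basic helix-loop-helix leucine zipper transcription factors that pair with MAX or compete for it. The members were the 9 mouse genes *Myc*, *Mycn*, *Max*, *Mxd1*, *Mxd3*, *Mxd4*, *Mxi1*, *Mnt* and *Mga*, taken by symbol from the 39089 genes of the deposited tables and followed through all 8 samples. The samples were RNA-seq libraries of EpCAM+ CD45- cells sorted from subcutaneous Myc-CaP tumors in male FVB hosts that were 6 weeks old at inoculation. Myc-CaP is a mouse prostate cancer line that came from a tumor driven by a human *MYC* transgene under a probasin promoter, and all 4 groups carried it. WT tumors came from cells with the control vector (Myc-CaP EV), and *Arid1a* KO tumors (KO tumors) from cells with a guide RNA against *Arid1a*, which encodes the ARID subunit of BAF-type SWI/SNF chromatin remodelers. From day 16 the hosts were gavaged daily for 2 weeks with JSH-23, a compound that keeps the NF-κB protein p65 out of the nucleus, or with the corn oil vehicle. Each combination of genotype and treatment had 2 samples. The guide sequence was not used here, and the number of clones and of tumors behind a sample is not given in the sources used here, so the p-values measure only how the 2 samples of each group differed, which may be technical. The deposited table has a row for mouse *Myc* only. Reads of the endogenous gene and reads of the human transgene that aligned to it cannot be told apart in that row.

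MAX binds DNA as a dimer with a member of the MYC or MXD families, most often at the E-box CACGTG. MYC and MYCN recruit histone acetyltransferases and raise transcription of genes for ribosome production, translation and nucleotide synthesis, whereas the MXD proteins (MXD1, MXI1, MXD3 and MXD4) and MNT recruit the SIN3 and histone deacetylase co-repressors to the same sites. MGA is a large MAX partner that belongs to the variant Polycomb complex PRC1.6, which keeps germline genes silent in somatic cells. In prostate cancer a raised MYC level is a common early event, and Myc-CaP models it.

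The libraries held 16401581 to 21972231 counts each. A level was told from 0 at 3 counts, which is 0.137 to 0.183 CPM (counts over the TMM-scaled library size), a limit that covers counting error only. *Arid1a* itself had mean levels of 159 ± 4.04 CPM in vehicle-treated WT and 104 ± 2.13 CPM in vehicle-treated KO tumors (SD, n = 2 each), against 150 ± 7.72 and 94.9 ± 1.49 CPM after JSH-23. Its log2 fold change was -0.60 with vehicle and -0.66 with JSH-23. Of 6 epithelial markers, *Krt8* and *Krt19* were well above the limit, *Krt18* and *Cdh1* had group means under 1 CPM, and *Epcam*, the marker of the sort, had between 0 and 4 counts per sample. *Krt5* never exceeded 3 counts. Of 12 leukocyte markers, *Ly6g* and *Cd8a* were at 0 in all samples, and the summed level was between 10.2 and 22.4 CPM.

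Most of the mRNA counted in the 9 member rows came from *Max* and its repressor partners. The human *MYC* transgene has no row of its own, so its reads entered only where they aligned to mouse *Myc*. On the TPM scale, which divides by gene length and so allows genes to be compared, *Mxd4* had the highest level in every group, followed by *Max* and *Mxi1*. In vehicle-treated WT tumors the mean TPM was 112 for *Mxd4*, 65.3 for *Max*, 60.0 for *Mxi1*, 45.0 for *Mnt*, 31.7 for *Mxd3*, 17.7 for *Myc*, 6.77 for *Mxd1* and 6.73 for *Mga*. *Mxd1* and *Mga* overlapped between samples in that group, and every other pair of neighbours in the order was apart. *Mycn*, the paralog known from neuroblastoma and neuroendocrine tumors, had 0 counts in 7 samples and 1 count in the first KO sample with vehicle, at or under the limit of 3 counts everywhere, and was the only member that did not pass the filter on low counts. In vehicle-treated KO tumors *Myc* moved from the sixth to the fourth place, at 58.1 TPM, above *Mnt* at 44.3 and *Mxd3* at 31.5, and with JSH-23 it was sixth again in both genotypes, at 13.2 TPM in WT and 20.9 TPM in KO tumors.

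**Figure D1:**
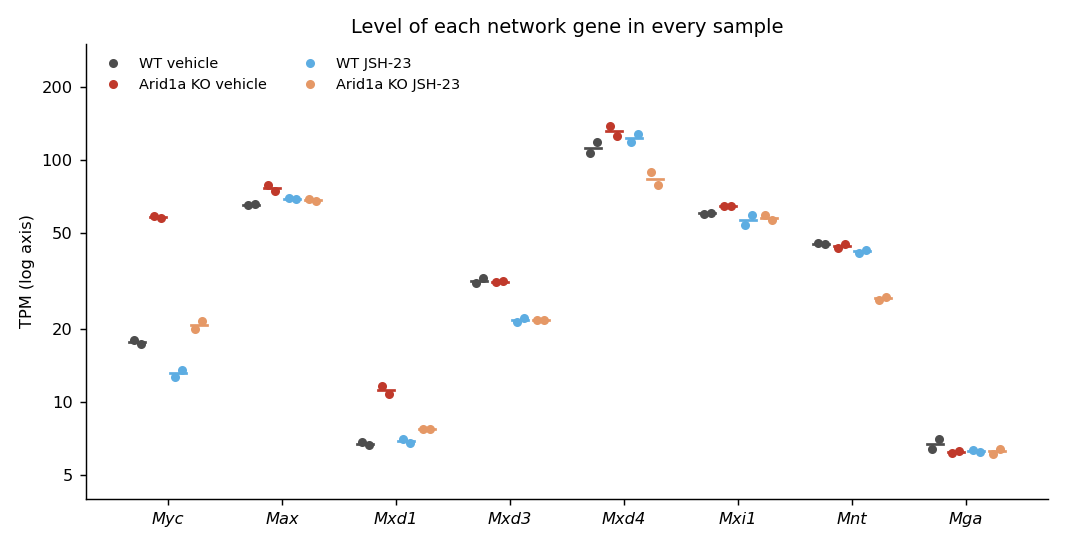
TPM (log axis) of 8 members in every sample; points are samples, bars are means of 2, and colors are the 4 groups. *Mycn* is left out because it was at 0 in 7 of 8 samples. *Myc* in vehicle-treated KO tumors stands at 57.7 and 58.5 TPM against 17.4 and 18.1 TPM in WT, while *Mxd4* and *Mnt* are lowest in JSH-23-treated KO tumors.

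The first comparison asked which members differed between vehicle-treated KO and WT tumors. *Myc* had 290 and 281 counts (17.2 and 16.5 CPM) in the WT samples and 1002 and 1128 counts (55.4 and 54.6 CPM) in the KO samples. The groups did not overlap, and the KO samples were within 1 CPM of each other. The fold change was 3.26, a log2 value of 1.70 (SE 0.076, adjusted p = 4.49e-42, quasi-likelihood test of edgeR, Benjamini-Hochberg adjustment over 13921 genes). *Mxd1*, a MAX partner that rises in many cells as they stop dividing and differentiate, was at 12.9 and 12.5 CPM in WT and at 21.9 and 20.3 CPM in KO tumors, a log2 fold change of 0.73 (SE 0.0998, adjusted p = 2.68e-10). These were the only members past a 1.5-fold change, 2 of 8 tested, where 12.7% of all genes were.

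A further 3 members were higher in KO tumors by less than 1.5-fold. *Max*, the shared partner, was at 67.8 and 68.0 CPM in WT and at 81.1 and 76.8 CPM in KO tumors (log2 fold change 0.22, SE 0.047, adjusted p = 3.35e-05). *Mxd4* was at 49.8 and 55.1 CPM against 64.2 and 58.1 CPM (0.22, SE 0.057, adjusted p = 0.000631). *Mxi1*, the MXD member first found as a MAX interactor, was at 111 and 112 CPM against 119 CPM in both samples (0.10, SE 0.038, adjusted p = 0.0281). The call of *Mxd4* was lost without the first WT sample (0.14, adjusted p = 0.0824) or without the first KO sample (0.15, adjusted p = 0.0732), and that of *Mxi1* without any of the 4 samples, with adjusted p between 0.0894 and 0.136. *Mxd3* overlapped between the groups (19.5 and 20.4 against 19.6 and 19.8 CPM), *Mnt* overlapped as well (log2 value -0.03, adjusted p = 0.536), and *Mga* was at 48.5 and 53.2 against 46.6 and 47.4 CPM (log2 value -0.11, adjusted p = 0.0953).

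In all, 5 of the 8 tested members were higher and 0 were lower, where 25.1% of all genes tested were higher and 25.7% lower. The smallest unadjusted p among the members with a negative log2 value was 0.0535, of *Mga*, and DESeq2 and limma on TPM values also called 0 members lower, whereas without the first WT sample *Mga* was called lower (-0.18, adjusted p = 0.0251). The median log2 fold change was 0.16 over the members and 0.00 over all genes, and the median size of the change was 0.16 over the members and 0.23 over all genes. With the biological coefficient of variation set to 0.1 in place of the estimated 1.61%, only *Myc* and *Mxd1* were called, and without the first KO sample 3 members were.

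JSH-23 was next compared with vehicle in KO tumors, a comparison that shares its vehicle samples with the preceding one. *Myc* was at 22.2 and 24.4 CPM with JSH-23 (411 and 508 counts), below both vehicle samples. It fell by 1.24 on the log2 scale (SE 0.070, adjusted p = 9.03e-34), and was the only member past 1.5-fold, where 26.1% of all genes were. *Mnt*, a broadly expressed MAX partner that represses transcription, fell from 111 and 115 CPM to 79.1 and 82.6 CPM (log2 fold change -0.48, SE 0.039, adjusted p = 6.56e-22). *Mxd4* fell to 48.4 and 43.3 CPM (-0.42, SE 0.057, adjusted p = 1.36e-10). *Mxd1* fell to 17.1 CPM in both samples (-0.30, SE 0.092, adjusted p = 0.00264), and *Mxd3*, a member found mostly in cycling cells, to 16.1 and 16.3 CPM (-0.28, SE 0.093, adjusted p = 0.00471). *Mxd1* lost the call without the first vehicle sample (-0.24, adjusted p = 0.0551), and *Mxd3* lost it with DESeq2 (-0.28, adjusted p = 0.0511).

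*Mga* went the other way, from 46.6 and 47.4 CPM to 54.3 and 57.2 CPM (log2 fold change 0.25, SE 0.056, adjusted p = 4.73e-05), although on log2(TPM + 1) the difference was 0.01 with an adjusted p of 0.943. *Max* and *Mxi1* were not called, with log2 values of 0.08 each that turned negative without scaling beyond library size (both -0.04) and on log2(TPM + 1), where both were called lower (both -0.16). In the other direction, *Max* was called higher without the first vehicle-treated KO sample (0.12, adjusted p = 0.0447), and *Mxi1* was called higher with only the compared groups in the fit (0.09) and in 5 of the 8 fits that left out 1 sample, with 0.13 at most, without the second JSH-23-treated KO sample. The other 4 of these fits each left out 1 of the 4 WT samples. Of the 8 tested members 5 were lower and 1 was higher, against 34.5% and 33.5% of all genes, and on log2(TPM + 1) 7 were lower and 0 higher. The choice of scaling moved all genes in this comparison. The median over all genes was -0.02 with TMM scaling, -0.13 without scaling and -0.20 on log2(TPM + 1), and the share of calls that were higher was 49.3%, 37.7% and 25.2%. Relative to those medians *Myc*, *Mnt*, *Mxd4*, *Mxd1* and *Mxd3* were lower under each scaling.

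JSH-23 was then compared with vehicle in WT tumors. *Myc* was at 12.5 and 13.3 CPM with JSH-23 (223 and 219 counts) against 17.2 and 16.5 CPM with vehicle, and fell by 0.39 on the log2 scale (SE 0.101, adjusted p = 0.00048), a call that was lost with a coefficient of variation of 0.1 (adjusted p = 0.076). *Mxd3* fell from 19.5 and 20.4 to 13.9 and 14.5 CPM (log2 fold change -0.49, SE 0.0996, adjusted p = 1.06e-05). *Mxd4* was at 56.9 and 61.2 CPM, higher by 0.17 on the log2 scale (SE 0.058, adjusted p = 0.00955), and *Max* at 73.9 and 73.5 CPM, higher by 0.12 (SE 0.048, adjusted p = 0.0284). DESeq2 called neither, the call of *Max* was lost without any of the 4 samples, and that of *Mxd4* without the first vehicle sample (0.10) or the second JSH-23 sample (0.12). Thus 2 members were higher and 2 lower of 8, where 28.7% of all genes were higher and 27.3% lower. No member passed 1.5-fold (15.8% of all genes did), although 4 members had an unadjusted p under 0.05, and DESeq2 called 2 members lower and 0 higher. Without the first vehicle sample 2 members were called.

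With JSH-23 in both genotypes, *Myc* was still higher in KO than in WT tumors, at 22.2 and 24.4 against 12.5 and 13.3 CPM (log2 fold change 0.86, SE 0.092, adjusted p = 1.1e-14), the only member past 1.5-fold (8.74% of all genes). *Mxd1* was at 17.1 CPM in both KO samples and at 13.6 and 13.1 CPM in WT (0.36, SE 0.102, adjusted p = 0.00191). *Mnt* was lower in KO tumors, at 79.1 and 82.6 against 109 and 112 CPM (-0.45, SE 0.040, adjusted p = 4.54e-19), and so was *Mxd4*, at 48.4 and 43.3 against 56.9 and 61.2 CPM (-0.37, SE 0.058, adjusted p = 3.54e-08). *Mxi1* (0.22), *Mga* (0.19) and *Max* (0.18) were also called higher, but on log2(TPM + 1) neither these nor *Mxd1* were called, and *Max* (-0.015) and *Mga* (-0.0023) changed sign. *Mga* also lost its call without the second KO sample with JSH-23 (0.16, adjusted p = 0.0511). In total 5 of 8 were higher and 2 lower, against 23.4% and 23.8% of all genes, and 1 was higher and 2 lower on log2(TPM + 1), where the median over all genes was -0.16.

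**Figure D2:**
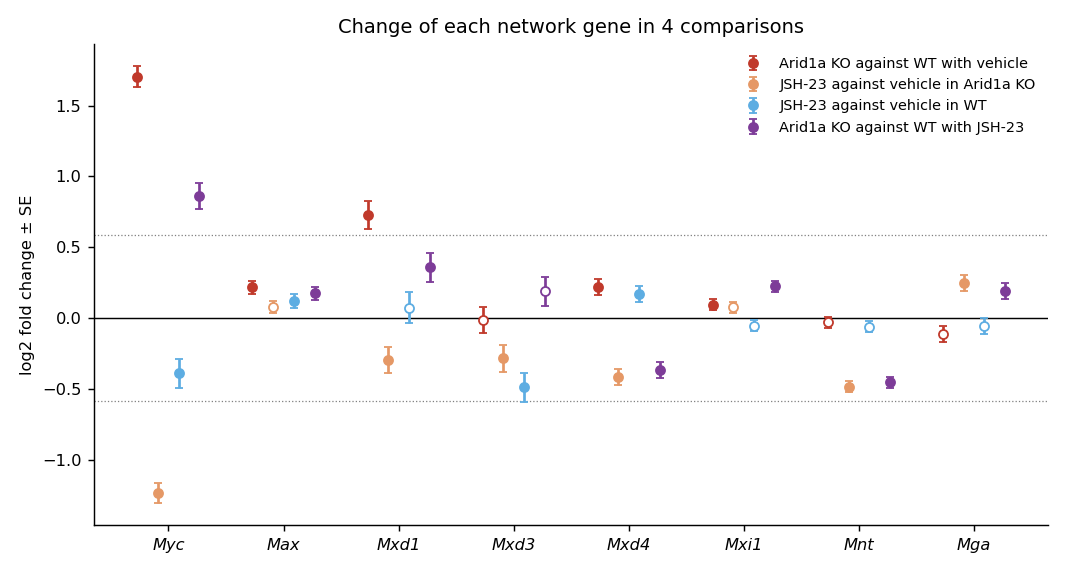
Log2 fold change of 8 members in 4 comparisons (colors); bars are the standard error of the edgeR fit, filled points have an adjusted p under 0.05, and dotted lines mark 1.5-fold. *Myc* lies at 1.70 for KO against WT with vehicle and at -1.24 for JSH-23 in KO tumors, and *Mnt* and *Mxd4* lie below 0 only in the comparisons with JSH-23-treated KO tumors among the called points.

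Whether the response to JSH-23 differed between the genotypes was tested as an interaction. For *Myc* the difference of the log2 changes was -0.85 (SE 0.124, adjusted p = 4.84e-09), as *Myc* fell by 1.24 in KO and by 0.39 in WT tumors. *Mxd4*, which fell in KO tumors and in WT was called higher by edgeR but not by DESeq2, had an interaction of -0.59 (SE 0.081, adjusted p = 9.7e-10). *Mnt*, which fell in KO tumors and had a log2 value of -0.06 in WT (adjusted p = 0.175), had one of -0.42 (SE 0.055, adjusted p = 9.76e-11). *Mga* had a positive one of 0.30 (SE 0.081, adjusted p = 0.00128) that was not called on log2(TPM + 1) (0.09, adjusted p = 0.549). *Mxd1* (-0.37, adjusted p = 0.0308) and *Mxi1* (0.13, adjusted p = 0.0485) were called by edgeR and not by DESeq2 (adjusted p = 0.169 and 0.228), and each lost its call in 6 of the 8 fits that left out 1 sample. On log2(TPM + 1) the value of *Mxi1* was negative (-0.07). With a coefficient of variation of 0.1 only *Myc* kept its call, and the adjusted p was 0.0841 for *Mxd4* and 0.25 for *Mnt*. Thus 4 members had a lower and 2 a higher interaction, where 18.1% and 20.7% of all genes did, and *Myc* and *Mxd4* passed 1.5-fold, as did 9.2% of all genes.

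Because *Mxd4* and *Mnt* were lowest in KO tumors treated with JSH-23, their upstream sequences are shown, with the E-box CACGTG in capitals. The bases before the start are from RefSeq for build GRCm38.p6 and are written 5′ to 3′ on the strand of the gene.
*Mxd4*, chr5:34187711-34187960, minus strand: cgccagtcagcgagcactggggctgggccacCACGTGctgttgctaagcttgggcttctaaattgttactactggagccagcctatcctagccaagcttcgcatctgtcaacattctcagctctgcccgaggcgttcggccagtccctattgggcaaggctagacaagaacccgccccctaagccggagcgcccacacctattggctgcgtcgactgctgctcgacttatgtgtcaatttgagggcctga
*Mnt*, chr11:74830674-74830806, plus strand: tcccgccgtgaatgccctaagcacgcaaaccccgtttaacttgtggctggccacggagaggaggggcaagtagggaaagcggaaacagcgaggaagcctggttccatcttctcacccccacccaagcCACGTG
The E-box begins 219 bases before the RefSeq start of *Mxd4* and 123 bases before that of *Mnt*, whose annotated gene in GENCODE begins at 74830806, the last base printed. RefSeq windows were matched for 8 of the 9 members, all but *Myc*, and within 250 bases before a start *Mxd4* and *Mnt* were the 2 that held the motif. CACGTG equals its own reverse complement, so both strands were read at once. It was present in 6.02% of all 32851 windows and in 1 or more windows of 6.86% of 27025 genes. A match describes letters in a window and not binding. *Mxd4* lies at 34176580-34187710 on chromosome 5 and *Mnt* at 74830806-74845725 on chromosome 11. *Myc* lies at 61985341-61990361 on chromosome 15, *Max* at 76937269-76962323 on chromosome 12, *Mxd1* at 86647044-86669234 on chromosome 6, and *Mga* at 119872503-119970129 on chromosome 2.

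The balance within the network was read from TPM ratios, as a description. *Myc* was at 0.266 and 0.278 of *Max* in vehicle-treated WT tumors and at 0.746 and 0.777 in vehicle-treated KO tumors. With JSH-23 the ratio was 0.184 and 0.198 in WT and 0.290 and 0.322 in KO tumors, and the 4 groups did not overlap. *Myc* over the sum of the MXD members (*Mxd1*, *Mxd3*, *Mxd4* and *Mxi1*) was 0.084 ± 0.0061 (SD, n = 2) in WT and 0.244 ± 0.0076 (SD, n = 2) in vehicle-treated KO tumors, and 0.063 ± 0.00023 and 0.123 ± 0.014 with JSH-23. The sum of these MXD members was 211 and 239 TPM with vehicle in WT and KO tumors, and 208 and 171 TPM with JSH-23. The sum of the MXD members, *Mnt* and *Mga* was 4.02 ± 0.13 times *Max* in WT and 3.79 ± 0.035 times in vehicle-treated KO tumors, and 3.72 ± 0.18 and 2.99 ± 0.072 times with JSH-23. In mRNA terms the repressor partners therefore exceeded *Max*, and *Max* exceeded the mouse *Myc* row, in each of the 8 samples. Reads of the human *MYC* transgene that did not align to that row are in none of these ratios. The level of all *MYC* mRNA relative to *Max* is therefore not given by them. RNA levels do not give the amounts of protein, and in sorted bulk samples fewer cells of a kind and less RNA per cell cannot be told apart.

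**Figure D3:**
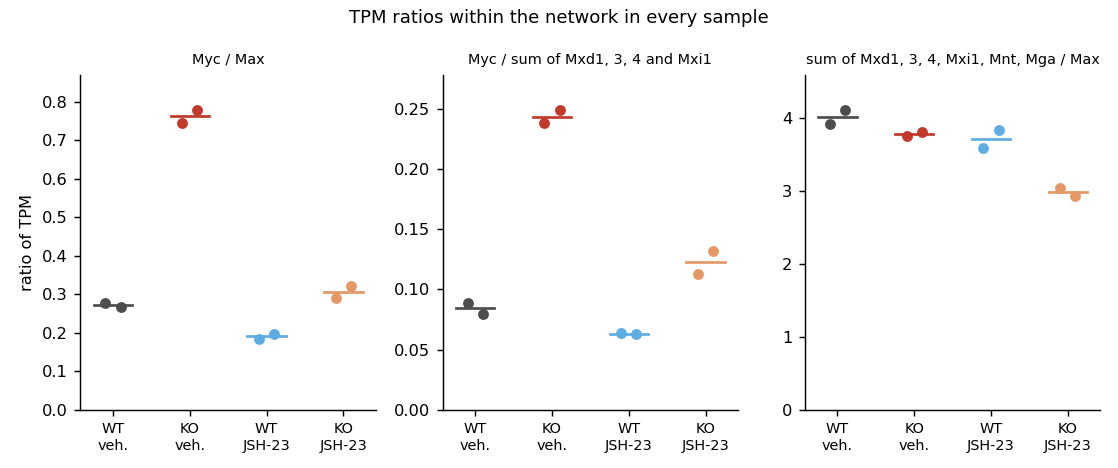
TPM ratios within the network in every sample (points) with the mean of 2 (bars), each axis starting at 0. *Myc* over *Max* reaches 0.777 in vehicle-treated KO tumors and is at most 0.322 in the other groups, and the sum of the MXD members, *Mnt* and *Mga* over *Max* is lowest, at 2.94 and 3.04, in JSH-23-treated KO tumors.

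*Myc* was compared with 9194 genes of at least 10 CPM for the likeness of their profiles over the 8 samples, which share groups and depth. The most alike were *Tfrc* (transferrin receptor), with a Pearson r of 0.999, *Zfp367*, with 0.998, and *Elf3*, an epithelial ETS factor, with 0.997. A total of 160 genes had an r above 0.95. *Elf3* was at 30.4 and 27.5 CPM in WT and 76.6 and 77.7 CPM in vehicle-treated KO tumors, and at 20.9 and 24.1 CPM and 34.5 and 36.4 CPM with JSH-23. Among the members, *Mxd1* was most like *Myc* (r = 0.934) and *Mga* least (r = -0.301), with *Max* at 0.509. *Mxd1* was most like *Dnaja3* (0.991), *Ghitm* (0.987) and *Lman1* (0.985), of which *Ghitm* rose with it from 231 to 395 CPM between WT and vehicle-treated KO tumors.

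A list of 34 genes known to be activated by MYC, 33 of them tested, was read next. With vehicle, 8 were higher and 20 lower in KO than in WT tumors, where 25.1% of all genes were higher and 25.7% lower, with a median log2 fold change of -0.14 over the list and 0.00 over all genes. Higher were *Tfrc*, at 116 CPM in both WT and at 333 and 324 CPM in KO samples (1.499, adjusted p = 2.98e-77), *Odc1*, the first enzyme of polyamine synthesis, at 54.5 and 58.5 against 112 and 106 CPM (0.95, adjusted p = 3.27e-38), *Pcna*, the replication clamp (0.68), and *Shmt2*, a mitochondrial one-carbon enzyme (0.64). The 7 genes past 1.5-fold that were lower were *Dkc1*, which modifies ribosomal RNA and is part of telomerase, *Nop16* of the nucleolus, the repair enzyme *Apex1*, the translation factor *Eif4a1*, *Polr1b* of RNA polymerase I, *Cad* of pyrimidine synthesis and *Fasn* of fatty acid synthesis, with log2 values between -0.79 and -0.64. *Dkc1* was at 62.2 and 56.5 CPM in WT and at 32.7 and 35.7 CPM in KO tumors. Thus the *Myc* row rose 3.26-fold in samples in which more of these genes fell than rose.

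With JSH-23 in KO tumors 21 of the 33 were higher and 7 lower (33.5% and 34.5% of all genes), with a median of 0.26, and the split was 19 and 10 without scaling and 15 and 12 on log2(TPM + 1), where the median over the list was 0.02 and that over all genes -0.20. *Tfrc* fell to 155 and 161 CPM (-1.05, adjusted p = 4.33e-65), and *Pcna* (-0.90), *Shmt2* (-0.65) and *Odc1* (-0.64) fell as well. *Eif4a1* (0.80), *Fasn* (0.79), *Apex1* (0.77) and *Cad* (0.61) rose, and so did *Tert*, the catalytic subunit of telomerase, from 1.02 ± 0.20 to 2.61 ± 0.10 CPM (SD, n = 2; 1.34, adjusted p = 0.00017). In WT tumors JSH-23 raised 11 and lowered 12 (28.7% and 27.3% of all genes). With JSH-23 in both genotypes 19 were higher and 9 lower in KO tumors, against 23.4% and 23.8% of all genes (10 and 14 on log2(TPM + 1)). On log2(TPM + 1) 17.8% of all calls in that comparison were higher. The interaction was higher for 21 and lower for 5, against 20.7% and 18.1% of all genes. The 5 were *Tfrc* (-0.73), *Odc1* (-0.58), *Cdc25a* (-0.34), *Shmt2* (-0.19) and *Slc7a5* (-0.15). Of the listed genes with a RefSeq window, 7 of 26 (26.9%) held CACGTG within 250 bases before a start, against 3 of 13 (23.1%) of the MYC-repressed list and 6.86% of all genes with a window.

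Of 18 genes known to be repressed by MYC 16 were tested, and in vehicle-treated KO tumors 9 were higher and 2 lower, against 25.1% and 25.7% of all genes, with a median of 0.54. *Btg2*, an antiproliferative factor, was at 33.7 and 38.8 CPM in WT and at 93.0 and 96.0 CPM in KO tumors (1.38, adjusted p = 2.01e-45), and *Gadd45a*, a stress response gene, at 20.8 and 19.4 against 46.6 and 48.1 CPM (1.24, adjusted p = 1.42e-29). *Klf4* (0.71), the kinase inhibitor *Cdkn1a* (0.68) and *Gadd45b* (0.65) were higher too. *Thbs1*, an inhibitor of vessel growth, was at 69 and 42 counts in WT and at 0 and 3 in KO tumors and was called lower (adjusted p = 0.0312), and *Cebpa* was lower by a log2 value of -0.17. With JSH-23 in KO tumors 5 were higher and 8 lower (2 and 10 on log2(TPM + 1)), against 33.5% and 34.5% of all genes. On log2(TPM + 1) 25.2% of all calls in that comparison were higher. *Btg2* fell to 31.1 and 29.2 CPM (-1.65), *Klf4* to 71.7 and 67.2 CPM (-1.04), and *Cdkn1c* from 4.25 to 2.39 CPM (-0.83, adjusted p = 0.000725). In WT tumors JSH-23 raised 5 and lowered 5, near the 28.7% and 27.3% of all genes. KO against WT with JSH-23 gave 9 higher and 2 lower (23.4% and 23.8% of all genes), or 6 and 4 on log2(TPM + 1), where 17.8% of all calls were higher. The interaction gave 1 higher and 6 lower (20.7% and 18.1% of all genes).

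**Figure D4:**
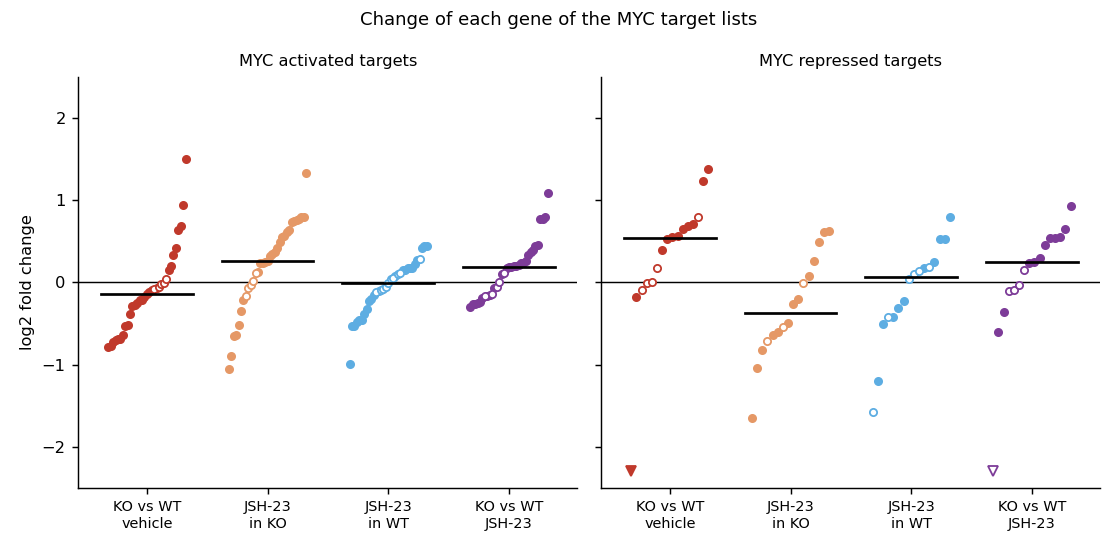
Log2 fold change of each tested gene of the lists of MYC-activated (33) and MYC-repressed (16) genes in 4 comparisons; filled points have an adjusted p under 0.05, black bars are medians, and triangles at the edge stand for *Thbs1*, which lies below the axis. For KO against WT with vehicle the medians are -0.14 for activated and 0.54 for repressed genes, and for JSH-23 in KO tumors 0.26 and -0.38.

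Genes for proteins that work with the network were counted in the same way, beside the 25.1% higher and 25.7% lower of all genes in KO against WT with vehicle and the 33.5% and 34.5% for JSH-23 in KO tumors. On log2(TPM + 1) the median over all genes for JSH-23 in KO tumors was -0.20. Of all calls 25.2% were higher on that scale, against 49.3% with TMM scaling. The splits on log2(TPM + 1) in the lists that follow stand beside that shift of all genes. Of 14 MYC co-factors, which include acetyltransferase and chromatin subunits, 2 were higher and 6 lower in vehicle-treated KO tumors, led by *Ruvbl1*, an ATPase of the TIP60 and INO80 complexes (49.7 ± 3.55 to 32.02 ± 0.13 CPM, SD, n = 2; -0.63, adjusted p = 2e-15), and *Hcfc1* (-0.43). With JSH-23 in KO tumors 9 were higher and 3 lower (4 and 7 on log2(TPM + 1)), with *Zbtb17*, which encodes the MYC partner MIZ1, at 0.65, *Ruvbl1* at 0.51 and *Paf1* at 0.49. In WT tumors *Zbtb17* rose with JSH-23 as well (0.41), *Ruvbl1* was called lower (-0.21), and *Paf1* was not called (0.12). Of 10 co-repressor genes of MXD and MNT, 2 were higher and 2 lower with vehicle, with *Suds3* of the SIN3 complex at 0.53 and *Rbbp7* at -0.27. With JSH-23 in KO tumors 5 were higher and 2 lower (2 and 5 on log2(TPM + 1)), led by *Rbbp7* (0.53) and *Sap18* (0.50).

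Of 16 genes of MYC protein turnover 6 were higher and 6 lower in vehicle-treated KO tumors. *Skp2*, an F-box protein that ubiquitinates MYC, rose from 20.7 ± 0.071 to 35.2 ± 1.55 CPM (SD, n = 2; 0.77, adjusted p = 1.71e-15), and the mitotic kinases *Plk1* (-0.78) and *Aurka* (-0.42) were lower. With JSH-23 in KO tumors 8 were higher and 7 lower (4 and 9 on log2(TPM + 1)), with *Plk1* at 1.04, *Aurka* at 0.97 and the kinase *Pim1* at 0.82 against *Skp2* at -0.71 and *Fbxw7*, the F-box protein for phosphorylated MYC, at -0.66. In WT tumors JSH-23 raised *Pim1* by 0.62 on the log2 scale, a call kept in every alternative fit. *Plk1* and *Aurka* were called higher there by 0.13 each (adjusted p = 0.0348 and 0.0316), calls lost in 9 and 7 alternative fits. *Fbxw7* was called lower there by 0.25 (adjusted p = 0.0216), a call lost in 6 alternative fits, and *Skp2* was not called. *Fbxw7* was named after its values were seen. In the parallel MLX arm, *Mlx* was higher in vehicle-treated KO tumors (0.39, adjusted p = 2.7e-06) and *Mlxip*, which encodes MondoA, lower (-0.21, adjusted p = 1.69e-06). *Mlxip* rose with JSH-23 in KO (0.48) and in WT tumors (0.49), with an interaction of -0.02 that was not called. *Mycl* had 0 counts in 7 samples and 1 count in the eighth.

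Of 12 PRC1.6 partners of MGA 3 were higher and 2 lower in vehicle-treated KO tumors, with *Cbx3* at -0.30 and *L3mbtl2* at 0.26. The call of *L3mbtl2* (adjusted p = 0.0239) was lost in 6 alternative fits, and that of *Cbx3* in 1. JSH-23 in KO tumors raised 5 and lowered 4 (2 and 5 on log2(TPM + 1)), with *Rybp* at 0.68 and *L3mbtl2* at -0.52. *Rybp* rose in WT tumors as well (0.52), whereas *L3mbtl2* was not called there (-0.05). The germline genes that PRC1.6 keeps silent were low. Of 15, *Dazl*, *Stk31* and *Mael* were at 0 in all samples and 10, these included, never exceeded 3 counts. Their summed level was between 1.72 and 2.35 CPM in WT and between 3.49 and 3.54 CPM in vehicle-treated KO tumors, and between 2.74 and 4.195 CPM and between 2.88 and 3.57 CPM with JSH-23. In vehicle-treated WT and KO tumors *Sycp1* had means of 1.83 and 1.84 CPM, and *Taf7l* of 0.030 and 0.98 CPM. Only these 2 of the 15 were tested. *Taf7l*, named after its values were seen, had between 0 and 1 counts in WT and between 11 and 28 in vehicle-treated KO tumors (adjusted p = 4.74e-06).

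Other genes were set beside the *Myc* row. *Foxa1* and *Hoxb13*, transcription factors of the prostate epithelium, were lower in vehicle-treated KO than in WT samples (log2 fold change -0.54 and -0.53), and rose with JSH-23 in KO tumors (0.29 and 0.47). The probasin gene *Pbsn* itself was at 0 in every group. *Pvt1*, the long noncoding RNA next to *Myc*, was chosen after its values were seen. It was at 17.2 and 17.1 CPM in WT and 24.5 and 22.9 CPM in vehicle-treated KO tumors, and at 25.3 and 26.7 CPM and 35.4 and 36.4 CPM with JSH-23. It was thus higher in KO tumors (0.47, adjusted p = 2.2e-06) but rose with JSH-23 in KO (0.60, adjusted p = 3.27e-12) and in WT tumors (0.60, adjusted p = 2.11e-09), whereas *Myc* fell in both.

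**Figure D5:**
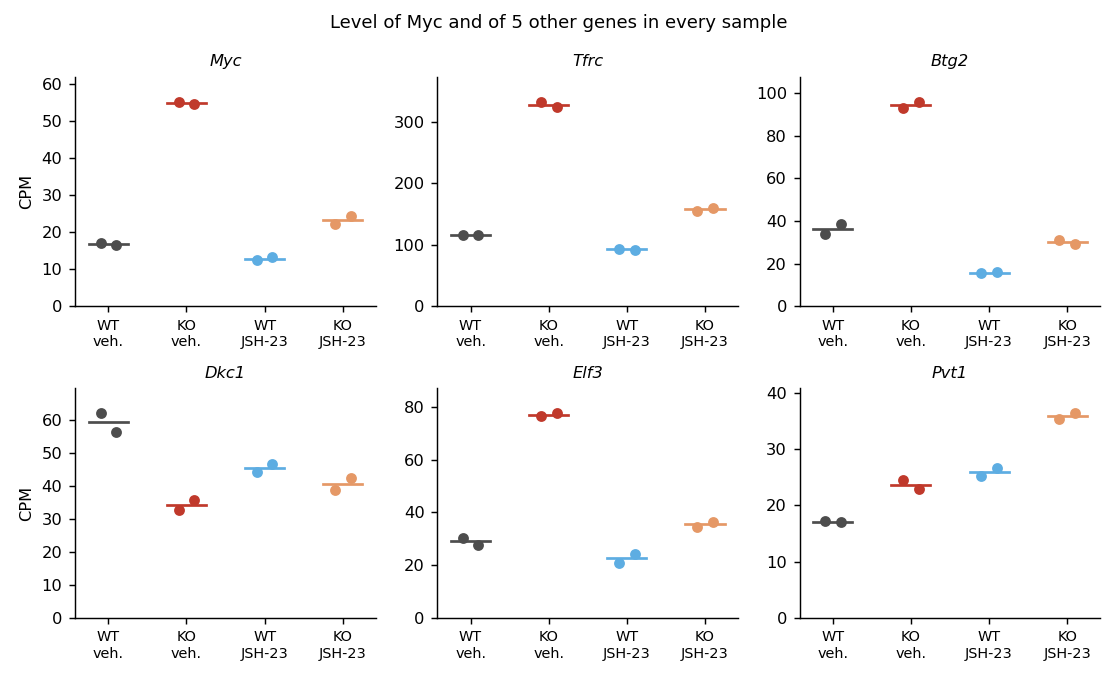
CPM of *Myc* and 5 other genes in every sample (points) with the mean of 2 (bars), each axis starting at 0. *Tfrc*, *Btg2* and *Elf3* share the peak of *Myc* in vehicle-treated KO tumors, *Dkc1* is lowest in that group, and *Pvt1* is highest in JSH-23-treated KO tumors, at 35.4 and 36.4 CPM.

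Markers of cell types also differed. The summed level of the 6 epithelial markers was between 88.5 and 102 CPM in WT and between 215 and 217 CPM in vehicle-treated KO tumors, and between 45.3 and 47.0 CPM and between 179 and 187 CPM with JSH-23. *Krt19* (1.40) and *Krt8* (1.02) were called higher in vehicle-treated KO tumors, 2 of 3 tested, where 25.1% of all genes were. With JSH-23 in KO tumors *Krt19* (-0.34) and *Krt8* (-0.16) were called lower, 2 of 3 tested, where 34.5% of all genes were. *Krt18* rose in that comparison (1.14, adjusted p = 0.0431), from 0.40 to 0.92 CPM. Of the leukocyte markers 5 were tested, and with vehicle the macrophage gene *Cd68* was higher in KO tumors, at 17.5 against 7.001 CPM, whereas *Lyz2* was lower, at 3.21 against 9.72 CPM, as were *Adgre1*, *Itgam* and *Csf1r*. Thus 1 of the 5 was higher and 4 were lower, against 25.1% and 25.7% of all genes. The summed level of all listed leukocyte markers was between 19.6 and 20.8 CPM in WT and between 20.1 and 22.4 CPM in vehicle-treated KO tumors, and between 10.4 and 19.3 CPM and between 10.2 and 13.0 CPM with JSH-23. *Cd68* fell to 8.13 CPM with JSH-23 in KO tumors. The 7 fibroblast markers summed to between 61.3 and 70.8 CPM in the WT and between 66.8 and 68.8 CPM in the KO samples with vehicle, and to between 65.8 and 67.8 CPM and between 42.0 and 47.9 CPM with JSH-23, when *Pdgfra* fell in KO tumors (-0.67). *Pdgfra* made up most of that sum, and *Col1a1* was called lower in vehicle-treated KO tumors (-0.69, adjusted p = 0.0354). With JSH-23, 4 of the 6 fibroblast markers tested were lower in KO than in WT tumors, where 23.8% of all genes were. Apart from *Pdgfra*, no fibroblast marker had a group mean above 4.18 CPM. The 5 endothelial markers summed to at most 1.77 CPM. The part of these markers in the values of *Myc* and the other members was not tested.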

How the data were processed

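RNA-seq of sorted Myc-CaP tumor cells was analysed in 4 groups of 2 samples, grouped by the labels. The authors deposited raw read counts per gene. Beside them stood deposited TPM values, which follow from the counts and the listed gene lengths. Per the study's methods reads were aligned to GRCm38/mm10 with TopHat2 and counted by strand with HTSeq-count, whereas the submitters' processing notes name HISAT2, HTSeq, DESeq2 and mm10. Counts were filtered with filterByExpr (13921 of 39089 genes), scaled by TMM (factors between 0.949 and 1.03), and fitted in edgeR 4.0.16 (R 4.3.3) with a mean per group over all 8 samples by its robust quasi-likelihood test; a standard error is the log2 fold change over the root of F. A call was a Benjamini-Hochberg adjusted p under 0.05. DESeq2 1.42.0, limma 3.58.1 on the log2 of TPM with a pseudocount of 1 or 0.1, no scaling, other count filters, a replicate block, a coefficient of variation of 0.1, only the compared groups, a 1.5-fold rule and leaving out each sample were alternatives. The edgeR step was tested on simulated data. Samples of a group differed by more than sampling noise (chi-square over its degrees of freedom, 1.46 to 1.57), and each counted as 1 replicate. Members and lists were chosen with earlier results of these data known. Named genes were all members and, of each list, up to 3 with the largest change in *Arid1a* KO against WT with vehicle and in JSH-23 against vehicle in *Arid1a* KO (adjusted p under 0.05, samples apart, mean of at least 1 CPM); other listed genes were named after their values were seen. Gene positions are from GENCODE vM21. A deposited table with the same TPM values for all samples was not used. One listed gene is not reported here.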

Additional observations from a re-analysis of the deposited data

Results flagged for a closer look

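The response to JSH-23 differed between the genotypes, by the edgeR test of the interaction, for 6 of the 8 tested members. The interaction was higher for 2 and lower for 4 of them, where 20.7% and 18.1% of all genes were called in these directions. The difference of the log2 changes, *Arid1a* KO minus WT, was -0.85 for *Myc*, -0.37 for *Mxd1*, -0.59 for *Mxd4*, 0.13 for *Mxi1*, -0.42 for *Mnt* and 0.30 for *Mga*. *Mxd1* and *Mxi1* were not called by DESeq2, and *Mga* and *Mxi1* were not called on TPM values. With a coefficient of variation of 0.1 only *Myc* was called, and *Mxd4* and *Mnt* lost their calls.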

How the results depend on the processing

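Of 869 values under alternatives, 737 kept their direction and call (or, for a count, stayed within 1.5 times), 73 lost the call, 11 gained it, 19 changed sign and 29 counts moved by more. *Myc* kept its call in KO against WT with vehicle (1.66 to 1.73), in JSH-23 against vehicle in KO tumors (-1.47 to -1.15), in KO against WT with JSH-23 (0.62 to 0.93) and in the interaction (-1.05 to -0.77). The number of members called in KO against WT with vehicle was 5, became 2 with a coefficient of variation of 0.1 and 2 with the 1.5-fold rule, and ranged from 3 (without the first vehicle-treated KO sample) to 5 when 1 sample was left out. For JSH-23 in KO tumors the 6 became 3 and 1 under the same alternatives. For JSH-23 in WT the 4 became 2 with DESeq2, 2 with either TPM pseudocount, 1 with the coefficient of 0.1 and 0 with the 1.5-fold rule, and ranged from 2 (without the first vehicle sample) to 4 without 1 sample. For KO against WT with JSH-23 the 7 became 3 with either TPM pseudocount, 2 with the coefficient of 0.1 and 1 with the 1.5-fold rule, and for the interaction the 6 became 1 and 2 under the last pair. The causes were not tested. Signs changed as follows. In KO against WT with vehicle *Mxd3* was 0.0096 without scaling and between -0.0513 and 0.0117 without 1 sample. With JSH-23 in KO tumors *Max* was -0.036 and *Mxi1* -0.0383 without scaling, and on TPM with a pseudocount of 1 or 0.1 *Max* was -0.1589 or -0.1609 and *Mxi1* -0.1592 or -0.1616. In KO against WT with JSH-23 the TPM values were -0.015 and -0.0152 for *Max*, -0.003 and -0.0031 for *Mxd3*, and -0.0023 and -0.0026 for *Mga*, and in the interaction -0.0677 and -0.0686 for *Mxi1*. Without 1 sample, *Mxi1* ranged from -0.1133 to 0.0196 and *Mga* from -0.1159 to 0.0141 for JSH-23 in WT, and *Max* from -0.0803 to 0.0011 in the interaction. Samples with the same replicate number did not deviate together (correlations from -0.0067 to 0.0268), and a fit with the replicate block called 5, 6, 4, 7 and 6 members in the 5 tests, as without it. A level under 3 counts, as for *Mycn*, was not detectable at this depth.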
